A study of Mus musculus with 2 samples.

Results

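The genes described here are the purinergic, lipid-sensing and orphan G protein-coupled receptors of an imatinib experiment in Ba/F3 cells, a mouse pro-B-like line that normally depends on interleukin-3 (IL-3). Members were all genes whose symbol, on a probe set naming that gene alone, starts with Gpr and a digit, P2ry, S1pr, Lpar or Ptger and a digit, Adora, or Ffar and a digit. This gave 98 genes, measured by 99 probe sets, out of 19935 named genes on the array, and no filter on low values removed any of them. All 98 were found in RefSeq's genes of the GRCm38.p6 assembly, and no adenosine receptor gene (Adora) was among them.

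Both groups were Ba/F3 cells that constitutively express BCR-ABL, the fusion kinase of chronic myeloid leukaemia, in medium with 10% fetal bovine serum. Both were treated with imatinib, an inhibitor of the ABL kinase, at 5 µM for 6 h. One group was grown with IL-3 and the other without it, and both samples are titled as live cells; the submitters describe the cells without IL-3 as those that die from the drug. Each group is 1 mouse Gene 1.0 ST array, so there was no replicate error between conditions, no test was possible, and precision is limited by how few arrays there are. Group membership follows the sample titles. The labels are not uniform, since the description of the sample titled with IL-3 says that it lacked the cytokine, and a swap would turn the sign of every difference given here.

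G protein-coupled receptors cross the membrane with 7 helices and pass a signal from outside the cell to a heterotrimeric G protein, which then acts on effectors such as adenylyl cyclase and phospholipase C beta. P2Y receptors bind extracellular nucleotides, and the S1P, LPA, PGE2 and free fatty acid receptors bind sphingosine-1-phosphate, lysophosphatidic acid, prostaglandin E2 and fatty acids. The Gpr symbols were given to receptors without a known ligand, and several of these now have one. In blood cells such receptors are known for guiding migration and positioning in lymphoid tissue. A few Gpr-named proteins, such as Gpr107, Gpr137 and Gpr89, sit in the membranes of the Golgi or lysosome rather than acting as classic surface receptors.

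Most of the receptors differed little between the arrays. By 1.5-fold, 4 members (4.08%) were lower with IL-3 and 1 (1.02%) was higher, against 2.71% and 3.52% of all named genes. Such counts are too small to set the receptors apart. Gpr183, the receptor for 7alpha,25-dihydroxycholesterol that positions B cells and dendritic cells, was 4.01-fold lower with IL-3. Gpr34, a lysophosphatidylserine receptor of myeloid cells, was 2.18-fold lower, and the orphan receptor gene Gpr160 and the LPA receptor gene Lpar6 were 1.97-fold and 1.58-fold lower. Gpr171, an orphan relative of the P2Y12 group, was 1.66-fold higher and was the only member past 1.5-fold on that side.

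The values behind these differences are log values, taken as log2, from which the authors had subtracted a baseline for every probe set. A value near 0 is therefore near that baseline, and levels cannot be compared between genes. Gpr183 stood at -0.20 with IL-3 and at 1.80 without it. It was near its baseline with the cytokine and far above it without. Among all 19935 genes its difference of -2.00 ranked 15 from the lowest. Gpr34 had values of 0.47 with IL-3 and 1.59 without, a difference of -1.12 at rank 90 from the lowest, and was above its baseline on both arrays. Gpr160 had values of -0.04 and 0.93, a difference of -0.98 at rank 142. Lpar6, whose value was -0.15 with IL-3 and 0.51 without, differed by -0.66 at rank 415. Gpr171 went the other way, with 0.86 with IL-3 and 0.13 without, a difference of 0.73 at rank 358 from the highest.

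**Figure D1:**
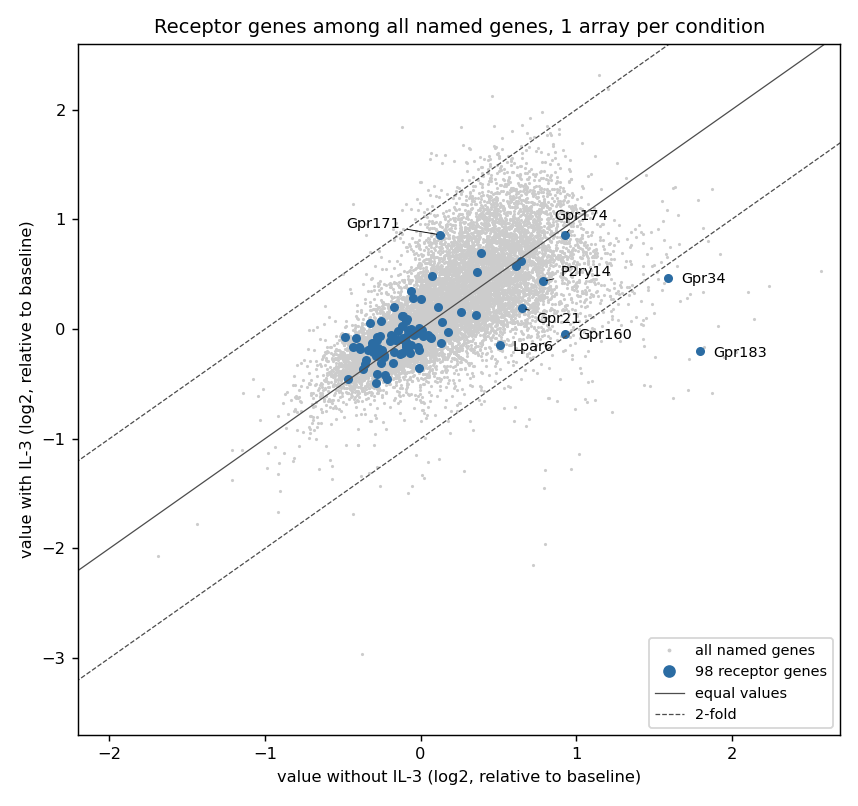
Value of each gene without IL-3 (horizontal axis) and with IL-3 (vertical axis), both log2 relative to a per-probe-set baseline, 1 array each. Grey points are all 19935 named genes and blue points the 98 receptor genes, the solid line marks equal values and the dashed lines 2-fold; Gpr183 and Gpr34 lie below the lower dashed line, at -2.00 and -1.12.

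At a limit of 2-fold, which is 1 on the log2 scale, 2 of 98 members (2.04%) were lower with IL-3, against 0.657% of all named genes, and 0 were higher, against 0.441%. At a limit of 1.5-fold, or 0.58 on the log2 scale, 4 members (4.08%) were lower, against 2.71% of all genes, and 1 (1.02%) was higher, against 3.52%. The shares of all genes depend on the scaling, with 3.23% lower and 2.41% higher by 1.5-fold after quantile normalization and 3.72% and 1.76% after a loess trend was subtracted, while the member counts at 1.5-fold stayed at 4 and 1. These counts are too small to set the receptors apart from other genes. Gpr34 at -1.12 was just inside the 2-fold limit and Gpr160 at -0.98 just outside it. At 1.5-fold the members just inside were Lpar6 and Gpr171, and those just outside were Gpr21 at -0.46 and Gpr83 at 0.41.

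Pooled over all mean values, the members resembled the genome at large. The median difference was 0.03 over the 98 members and 0.04 over all genes, and the robust spread (scaled median absolute deviation) was 0.18 and 0.17. Of the members 56 (57.1%) were above 0, compared with 59.8% of all genes, and 69 (70.4%) were within 0.2 of 0, compared with 67.6%. The scatter between probe sets of the same gene, an SD of 0.14 over 998 genes with more than 1 probe set, is the only measure of scatter these arrays give; it does not measure the error between arrays. Only Gpr31b, which carries an orphan name although fatty acid derivatives have been proposed as its ligands, had 2 probe sets here. Their differences were 0.01 and -0.25.

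**Figure D2:**
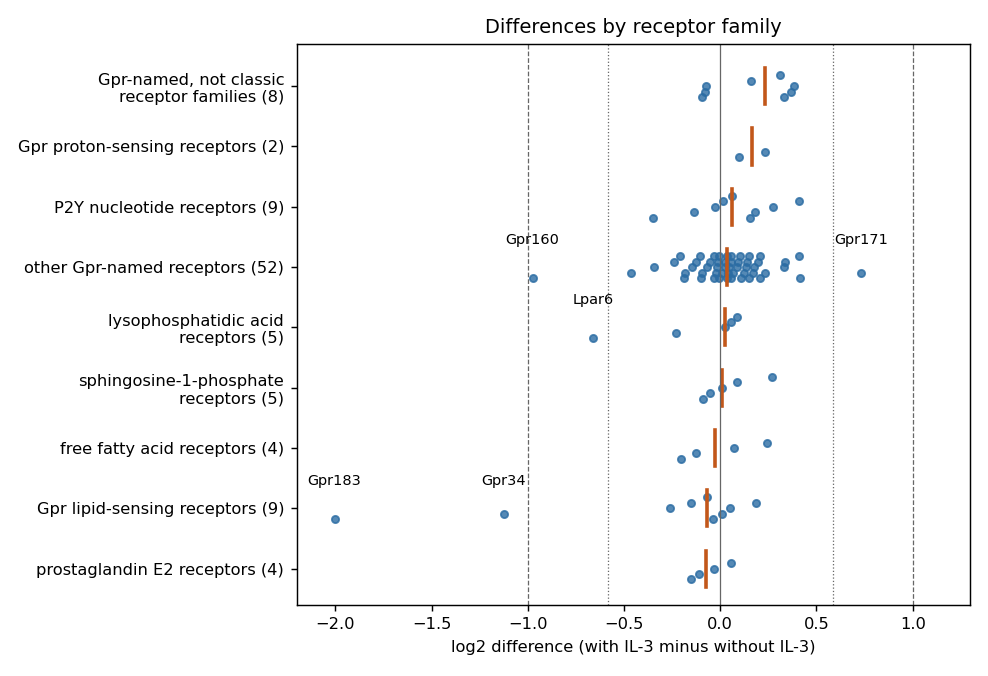
Log2 difference, with IL-3 minus without IL-3, of each receptor gene by family, with the number of genes in brackets. Each point is 1 gene from 1 array per condition, orange bars are family medians, dotted lines mark 1.5-fold and dashed lines 2-fold; the 5 labelled genes lie past 1.5-fold and the family medians lie between -0.07 and 0.23.

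The lipid-sensing Gpr receptors held both genes past 2-fold, where 0.657% of all named genes were lower by that much. This list was drawn up with earlier results of these data known, so the grouping cannot show that larger differences gather in this class. Of 9 members, 6 were below 0 and 3 above, with a median of -0.07, which was -0.18 after quantile normalization and -0.19 with a loess trend subtracted, with 2 above 0 in both. Besides Gpr183 and Gpr34, Gpr84, a receptor for medium-chain fatty acids on myeloid cells, had -0.13 with IL-3 and 0.13 without. Gpr174, a second lysophosphatidylserine receptor and known from lymphocytes, had 0.86 with IL-3 and 0.93 without. It was thus well above its baseline on both arrays and differed by -0.07, unlike Gpr34, which binds the same lipid. Gpr55, a receptor for lysophosphatidylinositol, differed by -0.15, Gpr119, a sensor of oleoylethanolamide, by -0.04, Gpr18 by 0.05 and Gpr132, a receptor for oxidised fatty acids, by 0.18.

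Of the lysophosphatidic acid receptors, Lpar6 stood apart. Lpar2 had 0.13 with IL-3 and 0.36 without, a difference of -0.23. Lpar1, Lpar3 and Lpar4 were below their baselines on both arrays, with values from -0.20 to -0.09 with IL-3 and from -0.28 to -0.12 without, and differed by 0.09, 0.06 and 0.03. Those 3 differences were smaller than the SD between probe sets of the same gene, which does not measure the error between arrays.

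None of the 5 sphingosine-1-phosphate receptor genes reached 1.5-fold, where 2.71% of all genes were lower and 3.52% higher by that much. S1pr1, which lets lymphocytes leave lymphoid organs, was below its baseline on both arrays, at -0.17 with IL-3 and -0.44 without, and differed by 0.27. S1pr2, a receptor that restrains migration, had 0.20 and 0.11. The haematopoietic receptor gene S1pr4 had -0.15 and -0.06, S1pr5 had -0.31 and -0.26, and S1pr3 had -0.03 and -0.04. Apart from that of S1pr1, these differences were smaller than 0.14, the SD between probe sets of the same gene. That SD does not measure the error between arrays, so it cannot tell which differences exceed that error.

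The P2Y receptors spread to both sides of 0, from -0.35 to 0.41, with 6 of 9 above 0 and a median of 0.06. P2ry1, an ADP receptor that acts through Gq, had 0.48 with IL-3 and 0.07 without. P2ry14, the receptor for UDP-glucose, had 0.44 with IL-3 and 0.79 without. It was above its baseline on both arrays and higher without the cytokine, whereas P2ry1 was higher with it.

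P2ry10, a receptor proposed for lysophosphatidylserine, had 0.27 with IL-3 and 0.00 without, and its mouse paralog P2ry10b had 0.62 and 0.65. The uridine nucleotide receptor genes P2ry2, P2ry6 and P2ry4 differed by 0.18, 0.15 and -0.14. P2ry12 and P2ry13, both ADP receptors that act through Gi, differed by 0.06 and 0.02. P2ry13 was the lower of the 2 against its baseline, at -0.45 and -0.47.

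The prostaglandin E2 and free fatty acid receptors showed only small differences. Ptger2 and Ptger4, the receptors coupled to Gs, differed by -0.15 and -0.03, Ptger1 by -0.11 and Ptger3, coupled to Gi, by 0.06. Ffar2 and Ffar3, which bind short-chain fatty acids, differed by -0.20 and -0.13. Ffar1 and Ffar4, which bind long-chain fatty acids, differed by 0.24 and 0.07. Ffar1 had exactly opposite values on the 2 arrays, 0.12 and -0.12, as did 7 of the 98 members within 1e-05, against 6.03% of all genes.

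Among the 52 other Gpr-named genes, which include the pseudogene Gpr137b-ps at -0.09, differences ran from -0.98 for Gpr160 to 0.73 for Gpr171, with 31 above 0, 21 below and a median of 0.04. After Gpr160, the lowest were Gpr21, an orphan linked to metabolism, with 0.19 with IL-3 and 0.65 without, then Gpr63 at -0.35 and Gpr33 at -0.24. After Gpr171, the highest were Gpr83, an orphan known from brain and regulatory T cells, at -0.07 with IL-3 and -0.48 without, and Gpr146, a receptor linked to cholesterol metabolism, at 0.35 and -0.06. The constitutively active Gs-coupled receptor genes Gpr6, Gpr12 and Gpr3 differed by 0.33, 0.21 and -0.21. The orphan receptor gene Gpr19 differed by 0.33, and the orphan receptor gene Gpr141 was above its baseline on both arrays at 0.58 and 0.61. The proton-sensing receptor genes Gpr4 and Gpr65 differed by 0.23 and 0.10.

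The 8 Gpr-named genes of intracellular or otherwise non-classic membrane proteins had a median of 0.23, or 0.14 with a loess trend subtracted. Of these, 5 were above 0 and 0 past 1.5-fold, where 2.71% of all genes were lower and 3.52% higher by that much. Gpr137b and Gpr137, which encode lysosomal membrane proteins, had 0.06 against -0.33 and 0.70 against 0.39, with and without IL-3. Gpr155, a lysosomal cholesterol sensor, had 0.28 and -0.05, Gpr180 had 0.20 and -0.17, and the Golgi pH regulator gene Gpr89 had 0.52 and 0.37. Gpr137c, Gpr107 and Gpr108 differed by -0.09, -0.08 and -0.08.

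**Figure D3:**
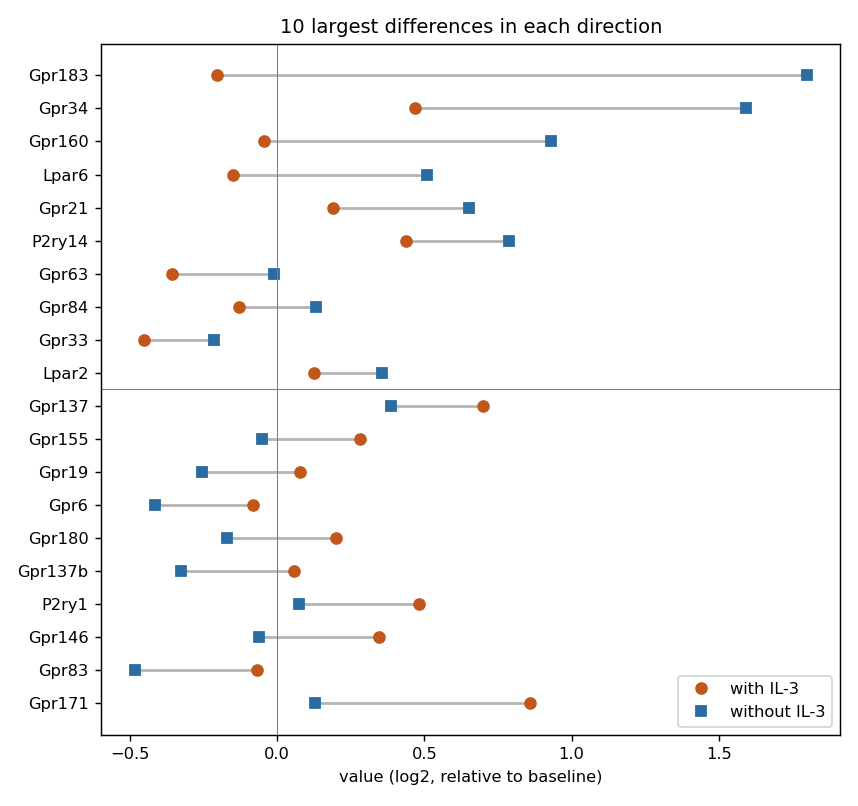
Values with IL-3 (orange circles) and without IL-3 (blue squares), log2 relative to baseline, for the 10 receptor genes with the largest difference in each direction. Gpr183 runs from -0.20 to 1.80 and Gpr34 from 0.47 to 1.59, whereas in the lower panel Gpr171 runs from 0.13 without IL-3 to 0.86 with it.

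Some of these receptor genes lie beside another member in the genome. Gpr183, Gpr34 and Gpr171 had neighbours with small or opposite differences, and 70.4% of all members were within 0.2 of 0. In GRCm38.p6, 18 of the 97 protein-coding members were within 100 kb of the next member, in 11 neighbouring pairs. Gpr160 and Lpar6 were in none of these pairs. Gpr183 at -2.00 lies next to Gpr18 at 0.05 on chromosome 14, and Gpr34 at -1.12 lies next to Gpr82, an orphan, at 0.05 on the X chromosome. On chromosome 3, Gpr171 at 0.73 is followed by P2ry14 at -0.35, P2ry13 at 0.02 and P2ry12 at 0.06. The X-linked group of P2ry10, P2ry10b and Gpr174 had 0.27, -0.03 and -0.07, and the row of Ffar2, Ffar3 and Ffar1 on chromosome 7 had -0.20, -0.13 and 0.24. Values were alike in the pairs of P2ry6 and P2ry2, at 0.15 and 0.18, and of Gpr141b and Gpr141, at -0.02 and -0.04.

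In all, 16 members sit inside the span of 11 larger measured genes, whose own values are given beside them. Gpr34 and Gpr82 lie within Cask, a scaffold kinase gene, which had -0.02 with IL-3 and 0.78 without, a difference of -0.80 in the direction of Gpr34 and not of Gpr82. Gpr183 and Gpr18 lie on the opposite strand of Ubac2, which differed by 0.29. Lpar6 lies within the retinoblastoma gene Rb1, at -0.11. Gpr171, P2ry14, P2ry13 and P2ry12 lie within the mediator gene Med12l, at 0.36, and Gpr21 lies within Rabgap1, at -0.31. Gpr75 at -0.19 lies within Erlec1, at -0.63, and Gpr146 at 0.41 within 3110082I17Rik, at 0.50. Gpr52 at 0.14 lies within Rabgap1l, at 0.03, and Gpr22 at 0.11 within Cog5, at -0.17. Gpr108 at -0.08 lies within Trip10, at -0.21, and Gpr17 at -0.06 within Lims2, at -0.05. P2ry14, P2ry13 and P2ry12 are on the opposite strand of Med12l. For Gpr171, Gpr34, Gpr82, Lpar6, Gpr21, Gpr75, Gpr52 and Gpr17, no strand was at hand for the member, its host or both. The part of the host transcripts in the receptor values was not tested.

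**Figure D4:**
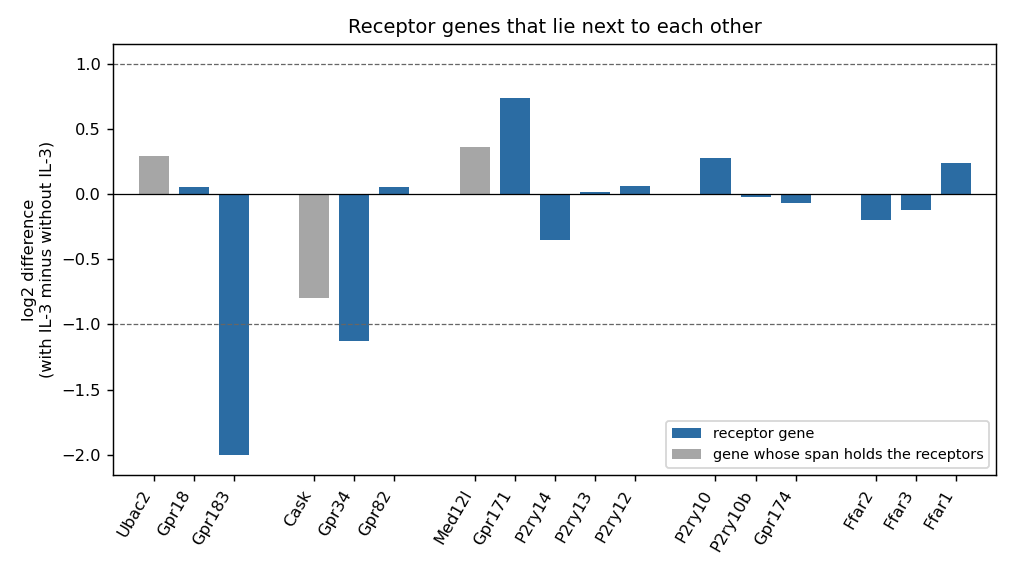
Log2 difference, with IL-3 minus without IL-3, of receptor genes that lie beside each other (blue) and, where they lie inside a larger gene, of that gene (grey), 1 array per condition. Dashed lines mark 2-fold; Gpr183 at -2.00 stands beside Gpr18 at 0.05, and Gpr34 at -1.12 beside Gpr82 at 0.05 within Cask at -0.80.

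The upstream sequences of Gpr183, of its neighbour Gpr18 and of Lpar6 are shown because the first and the last differed between the arrays and the neighbour did not reach 1.5-fold. Each is the 250 bases before the annotated start, 5′ to 3′ on the strand of the gene, from RefSeq on GRCm38.p6.
Gpr183, chr14:121965194-121965443, minus strand: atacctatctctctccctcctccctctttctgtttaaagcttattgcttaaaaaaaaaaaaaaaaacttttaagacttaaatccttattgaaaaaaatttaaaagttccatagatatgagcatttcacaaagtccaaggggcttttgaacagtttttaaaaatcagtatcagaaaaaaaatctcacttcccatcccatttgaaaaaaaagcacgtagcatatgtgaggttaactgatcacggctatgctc
Gpr18, chr14:121915889-121916138, minus strand: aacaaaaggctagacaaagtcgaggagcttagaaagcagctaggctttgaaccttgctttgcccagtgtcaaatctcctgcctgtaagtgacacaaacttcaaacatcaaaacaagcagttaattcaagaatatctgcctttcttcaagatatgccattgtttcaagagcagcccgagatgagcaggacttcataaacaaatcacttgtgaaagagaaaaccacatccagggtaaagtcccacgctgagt
Lpar6, chr14:73237641-73237890, plus strand: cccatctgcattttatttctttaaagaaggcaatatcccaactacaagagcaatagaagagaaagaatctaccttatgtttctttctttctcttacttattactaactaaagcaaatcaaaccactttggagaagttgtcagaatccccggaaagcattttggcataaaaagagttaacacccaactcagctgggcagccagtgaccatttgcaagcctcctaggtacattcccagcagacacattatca
The Gpr183 sequence is rich in A and T, with 32.0% G and C, against 42.4% for Gpr18, 39.2% for Lpar6 and a median of 52.4% over 32851 promoters of this length. On both strands, 7 motifs were searched, with overlaps counted. They were the AP-1 motif TGANTCA, the FOXO motif TGTTTAC, the STAT motif TTCNNNGAA, the GATA motif AGATAA, the ETS motif GAGGAA, the E-box CACGTG and the TATA motif TATAAA. None of these letters occurred in the 3 windows, so no base is in capitals. The motifs occurred in 6.75%, 3.17%, 7.02%, 9.99%, 23.3%, 6.02% and 12.4% of all promoters, in that order. Among 105 promoters of 77 members they occurred in 8.57%, 2.86%, 4.76%, 8.57%, 24.8%, 4.76% and 8.57%.

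The genes that make the ligands of these receptors, and those that carry their signals, were followed in 13 lists with 138 measured genes. Past 2-fold there were 2 genes with a lower value in the presence of IL-3 and 0 with a higher one, and past 1.5-fold there were 8 and 2, with a median of 0.02. These counts, out of 138 genes, can be read against the 0.657%, 0.441%, 2.71% and 3.52% of all genes.

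Among other receptors for nucleotides and lipid mediators, 5 of 23 had differences past 1.5-fold, all of them lower with IL-3, with a list median of -0.08 (4 of 23 after quantile normalization). Of all genes, 2.71% were lower by 1.5-fold as deposited and 3.23% after quantile normalization. The list was chosen with earlier results of these data known. P2rx4, an ATP-gated cation channel, had -0.88 with IL-3 and 0.68 without, which is 2.94-fold lower. P2rx7, the ATP-gated channel known for opening at high ATP, had -0.14 and 0.74 and was 1.85-fold lower. Cnr2, the cannabinoid receptor of immune cells, had 0.56 and 1.32. The platelet-activating factor receptor gene Ptafr and the channel gene P2rx6 differed by -0.63 and -0.59. The other 4 ATP-gated channel genes were within 1.5-fold, with P2rx3 at -0.41, P2rx1 at -0.32, P2rx2 at -0.04 and P2rx5 at 0.21.

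Genes for the ligands gave few differences of this size. The 4 genes that make or inactivate oxysterol ligands of Gpr183 were all within 1.5-fold, with Ch25h, the cholesterol 25-hydroxylase, at 0.00, Cyp7b1 at 0.15, Cyp27a1 at -0.06 and Hsd3b7, which degrades such ligands, at -0.34. In the S1P list, Sgpl1, the lyase that irreversibly degrades S1P, had 0.24 with IL-3 and 0.98 without and was 1.66-fold lower, and the kinase genes Sphk1 and Sphk2 differed by 0.17 and -0.32. Ada, the adenosine deaminase, had 0.81 and 0.11 and was 1.63-fold higher with IL-3. In the prostaglandin list, 7 of 8 genes were above 0. Ptges3, which also encodes the HSP90 co-chaperone p23, had 1.54 and 0.85 and was 1.62-fold higher, but it was within 1.5-fold after quantile normalization or with a loess trend subtracted, while the inducible cyclooxygenase gene Ptgs2 differed by 0.17. All 6 genes of the LPA list were within 1.5-fold.

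Downstream of the receptors, Rgs2, which speeds up GTP hydrolysis by Gq, had a value of 0.15 with IL-3, a difference of -1.35, and was 2.55-fold lower than without it. Rgs2 was the only one of 20 RGS genes past 1.5-fold, where 2.71% of all genes were lower and 3.52% higher by that much. The RGS list had a median of 0.02. Plcb2, the phospholipase C beta of blood cells, was 1.52-fold lower, at -0.85 and -0.24, and within 1.5-fold after quantile normalization. None of the 12 G alpha, 15 G beta and gamma, 10 adenylyl cyclase, 11 phosphodiesterase and 7 arrestin or receptor kinase genes reached 1.5-fold on the deposited scale, and 1 G beta or gamma gene did with a loess trend subtracted. Their list medians lay between 0.00094 and 0.08, so close to 0 that those of the G alpha and the G beta and gamma lists were below 0 under the other scalings. Within them Gnb4 at -0.49, Gng5 at -0.40 and the receptor kinase gene Grk3 at -0.36 were the lowest.

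**Figure D5:**
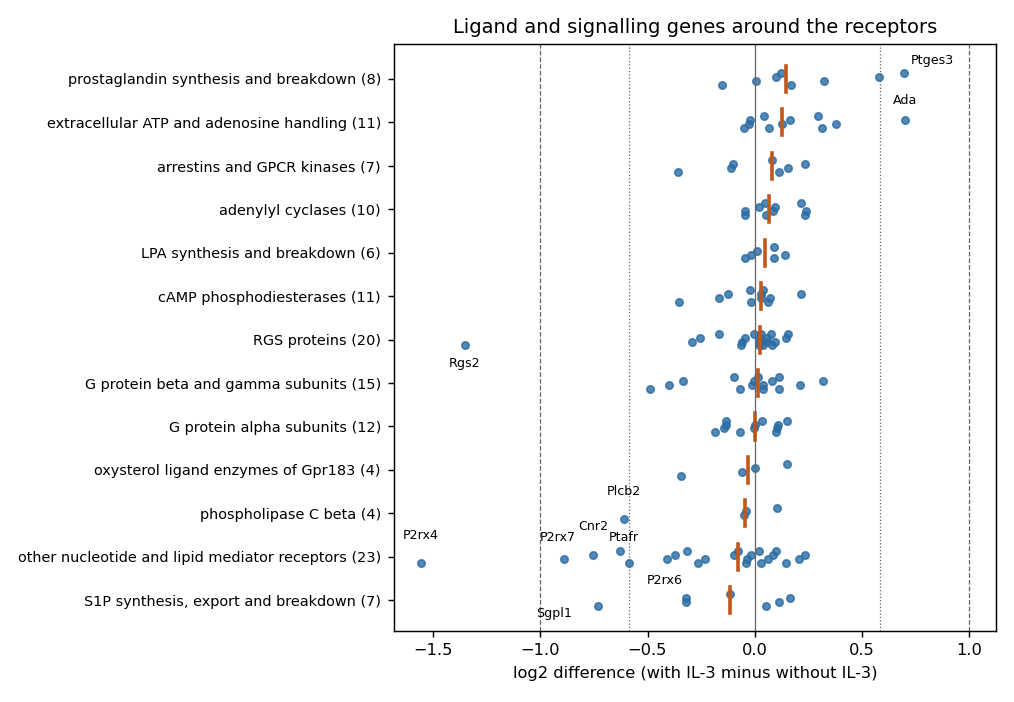
Log2 difference, with IL-3 minus without IL-3, of genes for ligand handling, signalling and other mediator receptors, by list, with the number measured in brackets. Points are genes from 1 array per condition, orange bars are list medians, dotted and dashed lines mark 1.5-fold and 2-fold; P2rx4 at -1.56 and Rgs2 at -1.35 are the 2 genes past 2-fold.

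Some markers of granulocytes and mast cells were lower with IL-3, as Gpr183 and Gpr34 were; past 2-fold on that side were 0.657% of all genes. Of 7 measured eosinophil markers 6 were below 0, 3 of them past 2-fold, and their values summed to -5.48 with IL-3 and 2.67 without. Those 3 were Prg2 at -2.76, Ear6 at -2.24 and Epx at -2.09, while Prg3, Siglecf, Ccr3 and Il5ra were at -0.95, -0.21, -0.02 and 0.11. The mast cell and basophil list had 7 of 11 below 0, 3 past 2-fold, with sums of -2.18 and 3.78. Its 3 were Fcer1a, Cpa3 and Cma1, at -2.46, -1.11 and -1.10, and 4 genes were above 0, among them Kit at 0.18 and Tpsb2 at 0.19. The neutrophil list had 5 of 10 below 0, 2 past 2-fold, with sums of -3.15 and -0.02. The neutrophil list was mixed, with a median of 0.02, since Ngp at -2.87 and Itgam at -1.08 made up most of that gap and S100a9 was at 0.38. Macrophage markers (5 of 8 below 0, sums of 0.09 and 0.93), B-lineage markers (3 of 9 below 0, 0.17 and 0.42) and T cell markers (2 of 6 below 0, -0.67 and -0.33) had 0 members past 2-fold. In these lists Adgre1 (macrophage) at -0.79 and Cd3g (T cell) at -0.80 were past 1.5-fold, as were 2.71% of all genes on that side. With a baseline subtracted, neither the B-lineage identity of the line nor the presence of other cells can be read from the marker lists. Fewer cells of a type and less RNA per cell cannot be told apart in these bulk samples, and the part of these cell types in the receptor differences was not tested.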

How the data were processed

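RNA from 2 samples was measured on 1-colour mouse Gene 1.0 ST arrays. RNA was isolated with a miRNeasy kit, copied into sense-strand cDNA (Ambion WT Expression Kit) and labelled with biotin, per the labels' protocols. The authors deposited a table of 28815 probe sets by 2 arrays, in log values read here as log2 and relative to a per-probe-set baseline, as the values show. No source used here gives the baseline, the log base, the summarisation, the normalization or the direction. A higher value was read as more RNA, and the opposite reading would turn every sign. The array medians were -0.03 with IL-3 and -0.05 without. The 21780 probe sets with 1 gene symbol in the platform annotation were used, with the probe set of highest mean per gene. Probe sets naming several genes, 1 of which names a member, were left out.

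The value without IL-3 was subtracted from that with IL-3 in Python 3.11.15 with pandas 2.3.3, and the counting was tested on simulated data. The 7 alternatives were median centring, quantile normalization, a loess trend subtracted (statsmodels 0.14.6, fraction 0.4), 2 filters at the array medians, the mean over probe sets and natural logs. The named genes are the members past 2-fold, the 10 largest differences in each direction, the members of the P2ry, S1pr, Lpar, Ptger and Ffar families, the members beside a fold limit, those with several probe sets and the pathway genes past 1.5-fold; further genes were named after their values were seen. The members and lists were chosen with earlier results of these data known. The promoter motifs were chosen after the values were seen.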

Additional observations from a re-analysis of the deposited data

How the results depend on the processing

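No paired analysis was possible because each group has 1 array. Every one of the 20 members with the largest differences kept its direction under the 3 scalings, with 58 of 60 values within the probe set SD of 0.14 and 0 reversed. The mean over probe sets leaves these 20 as they were, and natural logs cannot turn a sign. Gpr183 stayed between -2.89 and -1.99 over all of these. Gpr160 passed 2-fold after quantile normalization (-1.07), after the loess trend was subtracted (-1.05) and as natural logs (-1.41). This gave 3 members past 2-fold on the lower side, against 0.808%, 1.02% and 1.88% of all genes in that order. As natural logs 1 member, Gpr171, was past 2-fold on the higher side and 4 were past 1.5-fold, against 2.1% and 7.4% of all genes read so. With both arrays required at or above their median, 19 members were left, because Gpr183, Gpr160 and Lpar6, among others, lie below the array median with IL-3. On the lower side 1 was past 2-fold and 1 past 1.5-fold (Gpr34 in both), against 0.573% and 3.33% of the 8376 genes left. The median over members was below 0 under both filters, at -0.03 with both arrays and -0.0075 with at least 1 array at its median. That of all genes stayed at 0.04. The filter of at least 1 array keeps Gpr183, Gpr160 and Lpar6 only through the array without IL-3, where they are high, so nothing is concluded from its median. Over all genes, the 2-fold counts went from 131 lower and 88 higher to 161 and 62 after quantile normalization and 203 and 29 after the loess trend was subtracted, so that the balance between lower and higher genes depends on the scaling. The medians of the S1P and LPA receptors, the LPA enzymes and the RGS genes, all within 0.05 of 0, also changed sign under at least 1 scaling. Under the other alternatives the counts of members stayed within 1.5 times those reported.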
